A study of Mus musculus with 8 samples.

Results

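The proteasome is the protease that degrades most intracellular proteins marked with ubiquitin. Its genes were followed here through every row of the deposited table whose symbol begins with Psma, Psmb, Psmc, Psmd, Psme, Psmf or Psmg and a number. The rule took 50 of 24015 gene symbols. The cells were cardiac fibroblasts from mice 8 weeks old (strain C57BL/6J, wild type), kept in differentiation medium for 7, 14 or 21 days or collected before that medium was given (day 0), with 2 libraries of total RNA at each of the 4 times and 8 in all. The times were compared to follow the genes through differentiation. All groups share strain, genotype, age and cell type. The labels do not say what the medium contains, and no library of cells kept for 7 to 21 days without it is among the samples analysed here, so the medium and the time in culture cannot be told apart. No label tells if the paired libraries of 1 day stem from different cultures or animals, so p-values measure the spread between these libraries, which may be technical.

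The proteasome has a barrel-shaped core, built from stacked rings of alpha and beta subunits, and a regulatory particle, with a base and a lid, that recognises ubiquitin, unfolds the substrate and feeds it into the core. Proteolysis is carried out by the beta subunits Psmb5, Psmb6 and Psmb7. In immune cells and in cells exposed to interferon gamma, newly made cores take up Psmb8, Psmb9 and Psmb10 in their place, and the resulting immunoproteasome favours peptides that fit MHC class I molecules. Psme1 and Psme2 form the interferon-inducible activator PA28, which caps the core in place of the regulatory particle.

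Sorted by role, the 50 rows held 5 inducible members (Psmb8, Psmb9, Psmb10, Psme1 and Psme2) and 31 constitutive subunits, of which 14 belong to the core and 17 to the regulatory particle. There were 3 other activators or inhibitors (Psme3, Psme4, Psmf1), 3 assembly chaperones of the regulatory particle (Psmd5, Psmd9, Psmd10) and 4 of the core (Psmg1 to Psmg4). Psma8 and Psmb11 are subunits restricted to testis and thymus. The pattern also took Psmc3ip, a meiotic recombination factor that is no proteasome subunit, and Psme2b, a copy of Psme2. Of the 50 rows, 49 had at least 10 normalized counts in at least 2 libraries and were tested. Psmb11 was left out, with 2 reads in all, in 1 day 0 library.

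Whole reads recovered from the table gave 13399313 to 21883498 reads per library. All 10 fibroblast markers had reads at every time. Their summed level was 712490 to 719123 normalized counts on day 0, 481581 to 507586 on day 7, 322572 to 366908 on day 14 and 471493 to 539298 on day 21. Col1a1, Col1a2, Col3a1 and Vim made up most of this sum, and the markers moved in both directions. Mean Col1a1 was 249947 on day 0 and 22417.5 on day 14, while mean Dcn was 9270 and 53004. By the test given below, 5 of the 10 were higher and 3 lower on day 7 than on day 0. On day 14, 4 were higher and 5 lower, and on day 21, 5 and 3. Of all genes 27.5%, 35.2% and 29.8% were higher and 27.9%, 35.6% and 29.5% lower. Changes on day 14 depended on transcript length over all genes. Per doubling of transcript length, the log2 change of 13416 genes fell by 0.39 on day 14 against day 0, with slopes of -0.01 on day 7 and -0.14 on day 21, and single libraries of day 14 had slopes of -0.32 and -0.46. Proteasome transcripts are short, with a median of 1430 bases over the 49 tested rows, against 2939 bases over all tested genes with a length. Changes of the members are therefore also given after removal of each library's trend with transcript length and GC content for the inducible members, their counterparts and most of the others.

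A gene was called where its limma p, adjusted over all 13527 genes tested, was below 0.05. Of the 49 tested rows, 23 were called on day 7, 37 on day 14 and 21 on day 21 against day 0, where 55.4%, 70.7% and 59.4% of all tested genes were. Between times in medium 41 were called for day 14 against day 7, 30 for day 21 against day 14 and 1 (Psme2b) for day 21 against day 7, where 52%, 34.5% and 8.74% of all genes were. After trend removal these counts were 36, 35, 38, 16, 11 and 0, where 61.5%, 71.5%, 65.7%, 40%, 26% and 9.08% of all genes were called (4.9% higher and 4.18% lower in the last comparison). Against day 0, in the values as deposited, the share of rows called was below that of all genes on days 7 and 21 and above it on day 14.

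The inducible members were higher in medium than before it at all 3 times, with 1 exception. Psmb9 and Psmb8 had the largest log2 changes of the 49 tested rows at each time, and on day 14 they were 8.40-fold and 4.99-fold higher than on day 0. Psmb10, Psme1 and Psme2 were 2.41-fold, 2.33-fold and 2.16-fold higher on day 14 than on day 0. The exception was Psme2 on day 7. Psmb8, Psmb9, Psmb10 and Psme1 passed the test at each of the 3 times.

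Psmb8 encodes the inducible chymotrypsin-like subunit, the replacement for Psmb5. It had 79.6 and 90.2 normalized counts on day 0, 249.6 and 239 on day 7, 434 and 421 on day 14, and 326 and 326 on day 21. The groups did not overlap, and both day 14 libraries were above all others. Its log2 fold change against day 0 was 1.52 ± 0.13 on day 7, 2.32 ± 0.13 on day 14 and 1.93 ± 0.13 on day 21 (SE, limma with Benjamini-Hochberg adjustment over 13527 genes, adjusted p = 7.54e-07, 9.88e-09 and 6.09e-08). After removal of the length and GC trend the log2 changes were 1.45, 1.93 and 1.73, and all 3 still passed. Fold changes are on the scale of log2(value + 1), which understates the change of low genes.

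Psmb9, the inducible replacement for Psmb6, was the least abundant inducible member. Its levels were 12.7 and 15.7 normalized counts on day 0, 66.5 and 64.2 on day 7, 140.3 and 113 on day 14, and 110.0 and 100.2 on day 21. Both day 0 libraries were below all 6 others. The log2 fold change against day 0 was 2.13 ± 0.21 on day 7, 3.07 ± 0.21 on day 14 and 2.81 ± 0.21 on day 21 (SE, limma, adjusted p = 2.93e-06, 6.40e-08 and 1.83e-07), or 2.07, 2.57 and 2.57 with the trend removed.

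Psmb10, the inducible replacement for Psmb7, had 383 and 416 normalized counts on day 0, 534 and 543 on day 7, 870.1 and 1067 on day 14, and 593 and 579.7 on day 21. No day in medium overlapped day 0. Its log2 fold change against day 0 was 0.43 ± 0.12 on day 7, 1.27 ± 0.12 on day 14 and 0.55 ± 0.12 on day 21 (SE, limma, adjusted p = 0.00716, 9.37e-07 and 0.00127), and 0.38, 0.79 and 0.33 with the trend removed. The day 7 call was lost without day 0 replicate 1 (0.37) and without day 7 replicate 2 (0.42).

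Psme1, the alpha subunit of PA28, had 564 and 541 normalized counts on day 0, 761 and 752 on day 7, 1214 and 1372 on day 14, and 1003 and 882 on day 21. The 4 groups did not overlap. Against day 0 the log2 fold change was 0.45 ± 0.11 on day 7, 1.22 ± 0.11 on day 14 and 0.77 ± 0.11 on day 21 (SE, limma, adjusted p = 0.00296, 5.58e-07 and 4.80e-05), and it was 0.40, 0.63 and 0.50 with the trend removed.

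Psme2, the beta subunit of PA28, had 381 and 431 normalized counts on day 0, 452 and 417 on day 7, 788 and 976 on day 14, and 618 and 483 on day 21. Day 7 overlapped day 0, while both day 14 libraries were above all others. The log2 fold change against day 0 was 0.10 ± 0.14 on day 7 (SE, limma, adjusted p = 0.585), 1.11 ± 0.14 on day 14 (adjusted p = 1.94e-05) and 0.43 ± 0.14 on day 21 (adjusted p = 0.0208). The day 21 call was lost without day 0 replicate 1 (0.34), without day 21 replicate 1 (0.25) and with the trend removed (0.11, adjusted p = 0.357), whereas the day 14 call was kept with the trend removed (0.43, adjusted p = 0.00285).

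Psme2 values are uncertain because of Psme2b. The transcripts of this copy and of Psme2 were identical at 789 of 794 aligned bases (99.4%), so the counting could split reads between them. Psme2b had 863 and 847 normalized counts on day 0, 842 and 863 on day 7, 1714 and 1904 on day 14, and 1243 and 1045 on day 21. The sum of Psme2 and Psme2b was 1244 and 1279 on day 0, 1294 and 1280.2 on day 7, 2502 and 2879.8 on day 14, and 1862 and 1528 on day 21. Each day 14 sum was above the 6 others, and the day 7 sums lay just above the day 0 ones.

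**Figure D1:**
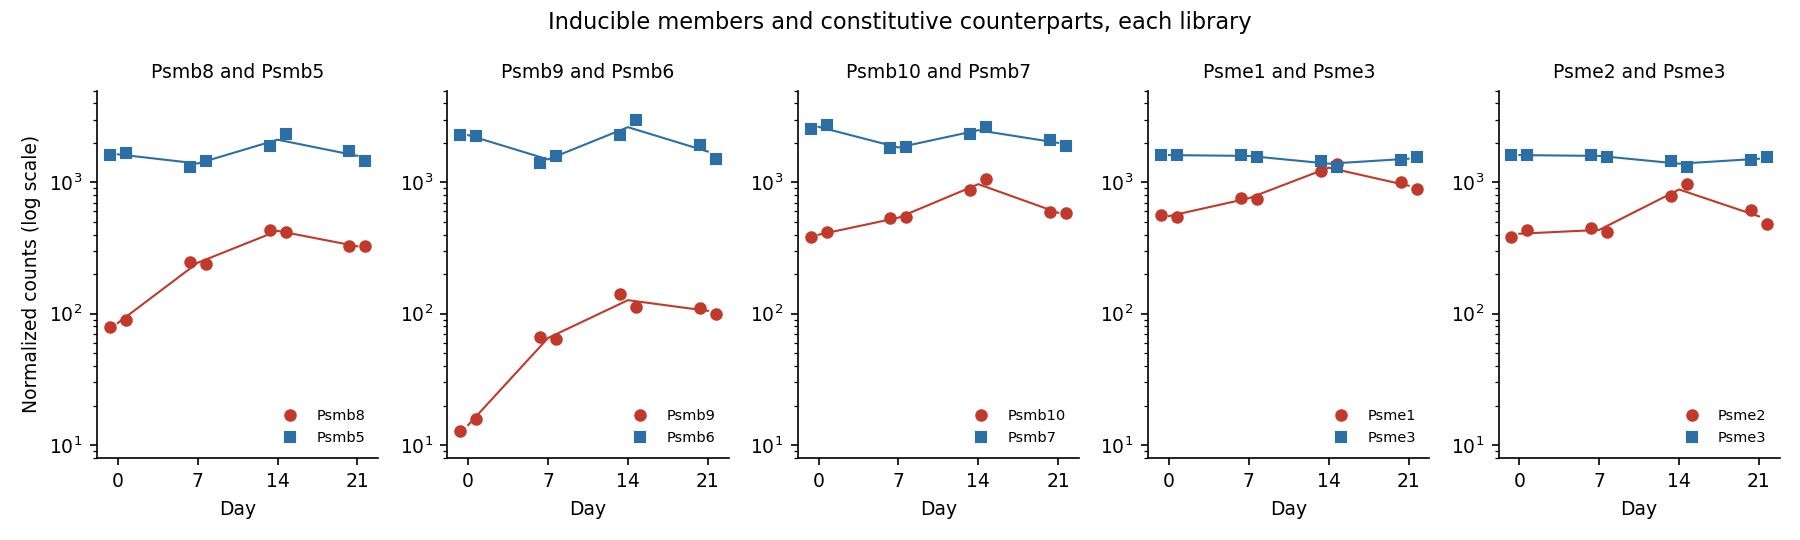
Normalized counts (log scale) of each inducible member (red circles) and its constitutive counterpart (blue squares) by day, with 1 point per library and lines through the means of 2. Psmb8 lies at 79.6 and 90.2 on day 0 and at 434 and 421 on day 14, while Psmb5 stays between 1315 and 2333.

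As a list, 4 of the 5 inducible members were called higher on day 7, when 27.5% of all tested genes were, 5 of 5 on day 14 (35.2% of all genes) and 5 of 5 on day 21 (29.8%). The median log2 change of the 5 was 0.45, 1.27 and 0.77 on days 7, 14 and 21, against medians of -0.01, 0.00 and 0.00 over all tested genes. With the length and GC trend removed the calls were 4, 5 and 4, where 27%, 31.6% and 27.8% of all genes were higher, and the medians were 0.40, 0.79 and 0.50. The same removal moved the median of all genes to -0.08, -0.09 and -0.11. The inducible genes were picked for contrast with results of these data known, so the counts describe the list and are no test of it.

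Between times in medium, all 5 inducible members were higher on day 14 than on day 7, by 0.77 to 1.01 on the log2 scale, where 25% of all genes were higher. Of the 5, 4 passed with the trend removed, against 17.8% of all genes, Psmb9 being the one that did not (0.50, adjusted p = 0.084). At day 21, 4 of 5 were lower than on day 14, where 14.3% of all genes were lower, and Psmb9 was not called (-0.26, adjusted p = 0.346). The Psmb8 fall (-0.39, adjusted p = 0.0316) was lost without day 7 replicate 1, day 7 replicate 2, day 14 replicate 1, day 14 replicate 2, day 21 replicate 1 or day 21 replicate 2 (-0.39, -0.39, -0.37, -0.41, -0.39 and -0.39), and the Psme1 fall (-0.46) without day 21 replicate 2 (-0.36). With the trend removed 2 of the 5 were still lower, Psmb10 (-0.46) and Psme2 (-0.32), where 11.1% of all genes were. By limma no inducible member passed between day 21 and day 7, when 5.46% of all genes were higher (4 at unadjusted p below 0.05, 2 by edgeR and 0 by DESeq2), although the log2 differences were positive, with 0.68 for Psmb9 (adjusted p = 0.0633) and 0.41 for Psmb8 (adjusted p = 0.0622).

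The promoters below are shown because the inducible genes are known targets of interferon-activated factors and the constitutive ones of the stress-responsive factor Nrf1 (Nfe2l1). Each is 300 bases, 250 before the start of the gene and 50 after, in the direction of transcription, from RefSeq on GRCm38.p6. Psmb8 lies at chr17:34197945-34198244 on the plus strand, and the capitals mark a match to the gamma-activated site of interferon-responsive promoters, searched as TTCNNNGAA. Psme1 lies at chr14:55578244-55578543 on the plus strand, and the capitals mark a match on the opposite strand to the interferon-stimulated response element, searched as GAAA, NN and GAAA in a row. Psmb5 lies at chr14:54617946-54618245 on the minus strand, and the capitals mark a match to the antioxidant response element, searched as TGACNNNGC. Psmb9 lies at chr17:34187281-34187580 on the minus strand, held none of the motifs searched, and shares 275 of its 300 bases with the promoter of Tap1, which is transcribed the other way.
Psmb8: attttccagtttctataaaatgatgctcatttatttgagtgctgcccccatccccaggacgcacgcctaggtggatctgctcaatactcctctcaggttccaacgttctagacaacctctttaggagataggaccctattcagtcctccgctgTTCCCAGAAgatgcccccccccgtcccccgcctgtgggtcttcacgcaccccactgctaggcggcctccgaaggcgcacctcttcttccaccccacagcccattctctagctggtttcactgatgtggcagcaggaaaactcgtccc
Psme1: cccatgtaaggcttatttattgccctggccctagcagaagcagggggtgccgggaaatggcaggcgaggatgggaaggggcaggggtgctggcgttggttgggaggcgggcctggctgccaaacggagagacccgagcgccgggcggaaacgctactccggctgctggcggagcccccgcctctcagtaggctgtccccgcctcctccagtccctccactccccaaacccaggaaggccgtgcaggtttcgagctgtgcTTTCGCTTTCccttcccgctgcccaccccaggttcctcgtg
Psmb5: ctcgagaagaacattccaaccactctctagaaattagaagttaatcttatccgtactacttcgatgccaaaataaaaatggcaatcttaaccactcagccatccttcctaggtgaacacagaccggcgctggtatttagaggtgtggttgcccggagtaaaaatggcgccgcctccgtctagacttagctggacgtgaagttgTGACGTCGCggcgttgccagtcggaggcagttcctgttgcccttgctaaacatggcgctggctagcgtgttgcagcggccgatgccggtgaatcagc
Psmb9: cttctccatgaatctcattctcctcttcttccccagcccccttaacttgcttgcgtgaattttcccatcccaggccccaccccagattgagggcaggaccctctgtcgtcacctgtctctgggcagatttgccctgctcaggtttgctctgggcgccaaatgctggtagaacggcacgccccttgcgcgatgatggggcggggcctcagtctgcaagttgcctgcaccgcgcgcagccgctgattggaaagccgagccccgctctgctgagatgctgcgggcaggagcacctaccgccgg

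Promoter windows were found for 42 of the 50 members, 45 windows in all, and were searched on both strands. The interferon-stimulated response element was in 5 of 45 (11.1%) and in 3.44% of 32851 promoters of the same length. Psme1 was the only inducible member among those 5, the others being Psmb3, Psmd4, Psmd9 and Psmg4. The gamma-activated site was in 3 of 45 (6.7%, against 8.30% of all), in Psmb8, Psmd2 and Psmg1. The antioxidant response element was in 6 of 45 (13.3%, against 12.39% of all), among them Psmb5 and Psmb6. The ETS motif CCGGAAG was in 16 of 45 windows (35.6%, against 8.86% of all), in no inducible member. These are letter matches in a window and no sites of binding.

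Against day 0 the constitutive catalytic subunits were not called higher on days 7 and 21. Psmb6 and Psmb7 fell at both times, Psmb5 was not called at either, and none was more than 1.29-fold higher on day 14 than on day 0. Psmb5, the chymotrypsin-like subunit, had 1604 and 1664 normalized counts on day 0, 1315 and 1466 on day 7, 1889.6 and 2333 on day 14, and 1724 and 1459.98 on day 21. Day 14 was above the other times, and day 21 overlapped day 0. Its log2 fold change against day 0 was -0.23 ± 0.12 on day 7, 0.36 ± 0.12 on day 14 and -0.04 ± 0.12 on day 21 (SE, limma, adjusted p = 0.116, 0.0169 and 0.779). The day 14 call was lost without day 0 replicate 1 (0.33), day 0 replicate 2 (0.39) or day 14 replicate 2 (0.21), and with the trend removed Psmb5 was lower on day 14 (-0.26, adjusted p = 0.0104).

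Psmb6, the caspase-like subunit, had 2309.7 and 2267 normalized counts on day 0, 1398 and 1589.6 on day 7, 2273 and 2986 on day 14, and 1924 and 1507 on day 21. Days 7 and 21 were below day 0, and day 14 overlapped it. Against day 0 its log2 change was -0.62 ± 0.14 on day 7, 0.19 ± 0.14 on day 14 and -0.43 ± 0.14 on day 21 (SE, limma, adjusted p = 0.00264, 0.251 and 0.0203). The day 21 call was lost without day 0 replicate 1 (-0.41), day 0 replicate 2 (-0.44) or day 21 replicate 2 (-0.25). After trend removal the changes were -0.64, -0.48 and -0.70, and all 3 were called.

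Psmb7, the trypsin-like subunit, had 2561 and 2726 normalized counts on day 0, 1834 and 1849.9 on day 7, 2334 and 2648 on day 14, and 2099.8 and 1894 on day 21. Again days 7 and 21 were below day 0, while day 14 overlapped it. The log2 change against day 0 was -0.52 ± 0.10 on day 7, -0.09 ± 0.10 on day 14 and -0.41 ± 0.10 on day 21 (SE, limma, adjusted p = 0.000688, 0.438 and 0.00338), or -0.60, -0.76 and -0.74 with the trend removed, all called. Between times in medium Psmb5, Psmb6 and Psmb7 moved in the same directions as the inducible members. They were higher on day 14 than on day 7 (0.60, 0.80 and 0.43) and lower on day 21 than on day 14 (-0.40, -0.61 and -0.32). After trend removal none of these calls was kept (0.00, 0.16 and -0.16, then -0.04, -0.22 and 0.0216).

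The balance within each pair does not depend on how libraries are scaled. Per kilobase of transcript, Psmb8 made up 2.67% and 2.91% of Psmb8 and Psmb5 together on day 0, 9.48% and 8.26% on day 7, 11.2% and 9.06% on day 14, and 9.45% and 10.97% on day 21. Psmb9 made up 0.324% and 0.407% of Psmb9 and Psmb6 together on day 0, 2.73% and 2.33% on day 7, 3.52% and 2.19% on day 14, and 3.27% and 3.78% on day 21. Psmb10 made up 11.7% and 11.9% of Psmb10 and Psmb7 together on day 0, 20.5% and 20.6% on day 7, 24.8% and 26.3% on day 14, and 19.99% and 21.3% on day 21. In all 3 pairs both day 0 shares were below the 6 later ones, and the constitutive subunit still held the larger share of transcript in every library.

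Tested over the 4 times, the log2 ratio of Psmb10 to Psmb7 changed (exact permutation test over all groupings of the 8 libraries into 4 pairs, p = 0.0286, adjusted over 5 ratios 0.0476). The ratio was -2.72 on day 0, -1.77 on day 7, -1.37 on day 14 and -1.76 on day 21. The ratios of Psme1 and of Psme2 to Psme3, the nuclear member of the same activator family, reached the smallest p these groupings allow (exact p = 0.00952, adjusted p = 0.0238 for each). Psme1 to Psme3 was 0.86 higher on day 21 than on day 0 on the log2 scale and 1.44 higher on day 14 than on day 0. Psme2 to Psme3 was 0.52 higher on day 21 and 1.33 higher on day 14 than on day 0. After trend removal Psme2 to Psme3 was 0.37 higher on day 21 and 0.82 higher on day 14, Psme1 to Psme3 was 0.75 and 1.02 higher, and both ratios still passed (exact adjusted p = 0.0159). With 8 libraries the test has little room, and leaving out 1 of them ended calls. The Psmb10 ratio did not pass without day 0 replicate 1, day 0 replicate 2, day 7 replicate 1 or day 7 replicate 2 (exact adjusted p = 0.0714 each) or without day 14 replicate 2 (0.0595). The Psme1 ratio did not pass without day 7 replicate 1 or day 7 replicate 2 (0.0714 each). The Psme2 ratio passed without day 14 replicate 1 or day 21 replicate 1 and did not without day 0 replicate 1 (0.0857), day 0 replicate 2 (0.0833), day 7 replicate 1 (0.0857), day 7 replicate 2 (0.107), day 14 replicate 2 (0.0857) or day 21 replicate 2 (0.0635).

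The ratios with the largest changes did not pass this test. Psmb8 to Psmb5 was 1.97 higher on day 21 than on day 0 on the log2 scale (exact p = 0.0857, adjusted p = 0.0857), and Psmb9 to Psmb6 was 3.23 higher (exact p = 0.0667, adjusted p = 0.0833). For both, days 7, 14 and 21 lay close together, with overlapping libraries, and day 0 lay apart. With the 2 day 0 libraries set against the 6 in medium, a comparison added after the data were seen, the Psmb8, Psmb9 and Psmb10 ratios reached the smallest p that 28 arrangements allow (exact p = 0.0357, adjusted over 5 ratios 0.0595), which is above 0.05 after adjustment. The 4-time test of Psmb9 to Psmb6 passed without day 14 replicate 1 (exact adjusted p = 0.0357). With the length and GC trend removed that of Psmb8 to Psmb5 passed (exact adjusted p = 0.0238).

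**Figure D2:**
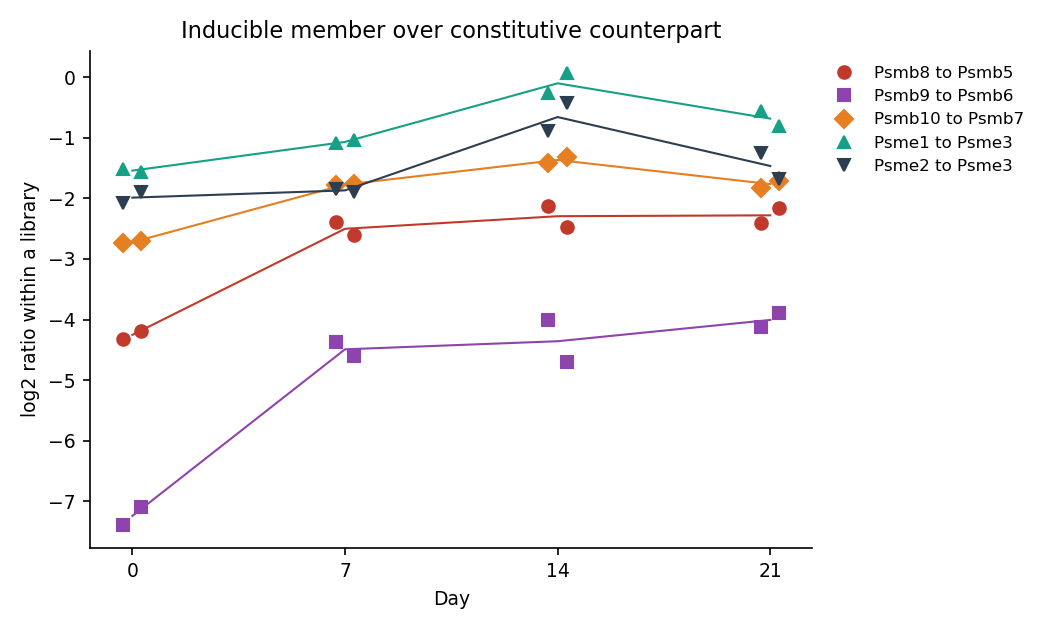
The log2 ratio of each inducible member to its constitutive counterpart in every library (points) by day, with lines through the means of 2. Psmb9 to Psmb6 is 3.23 higher on day 21 than on day 0, and the Psme1 and Psme2 ratios peak on day 14.

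Psme3 itself moved little. It had 1612.3 and 1612.1 normalized counts on day 0, 1625 and 1552 on day 7, 1459.6 and 1314 on day 14, and 1477 and 1548 on day 21. Only day 14 was called, just inside the threshold (log2 change -0.22 ± 0.09, SE, limma, adjusted p = 0.0499), and the call was lost without day 0 replicate 1, day 0 replicate 2, day 7 replicate 1, day 7 replicate 2 or day 14 replicate 2 (-0.22, -0.22, -0.22, -0.22 and -0.14). Psme4, the large activator PA200, fell on days 14 and 21 with log2 changes of -0.53 and -0.42 (adjusted p = 0.000186 and 0.00143) and was not called on day 7 (-0.18). Psmf1, a proteasome inhibitor, fell on day 14 (-0.26, adjusted p = 0.0317) and not on days 7 or 21 (0.00 and -0.05). Neither Psme4 (-0.12) nor Psmf1 (-0.14) was called on day 14 with the trend removed.

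The 31 constitutive subunits were lower or not called on day 7, more often higher than lower on day 14, and mostly lower or not called on day 21. At day 7, 17 of 31 were lower than on day 0 and 0 were higher, where 27.9% and 27.5% of all tested genes were. By limma at unadjusted p below 0.05, by edgeR and by DESeq2 the number higher was 0 as well. At day 14, 16 were higher and 5 lower (35.2% and 35.6% of all genes). At day 21, 1 was higher and 11 lower (29.8% and 29.5%). The median log2 change was -0.25, 0.24 and -0.17 on days 7, 14 and 21. The number lower on day 7 was 11 without day 0 replicate 1, 7 without day 0 replicate 2, 7 without day 7 replicate 1 and 9 without day 7 replicate 2. The number higher on day 14 was 9 without day 0 replicate 1 and 10 without day 14 replicate 2, and the number lower on day 21 was 6 without day 0 replicate 1, day 0 replicate 2 or day 21 replicate 2. In bulk RNA fewer cells of a type and less RNA per cell cannot be told apart.

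With the length and GC trend removed the day 14 rise was gone and the falls were wider. The counts became 0 higher and 26 lower on day 7, 1 and 22 on day 14, and 0 and 27 on day 21 (limma, with 0 higher on days 7 and 21 also at unadjusted p below 0.05). Of all genes, 34.5%, 39.9% and 37.9% were then lower. The median log2 change of the 31 was -0.35, -0.35 and -0.44, against -0.08, -0.09 and -0.11 over all genes. The subunit still called higher on day 14 was Psmc1 (0.21, adjusted p = 0.0182).

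At day 14 the members' changes in the values as deposited differed with transcript length. Of the 25 shorter tested rows, up to the median length, 17 were higher and 0 lower on day 14 than on day 0, while of the 24 longer rows 11 were higher and 9 lower. Over all tested genes of any length 35.2% were higher and 35.6% lower. The shortest length decile of all genes had a median log2 change of 0.61 on day 14, and the longest had -0.71. Over the 49 rows the log2 change on day 14 fell by 0.39 per doubling of transcript length, the same slope as over all genes, and the correlation with log2 length was -0.39 for day 14 against day 0 and -0.73 for day 14 against day 7 (across genes, which share libraries and are not independent). Where this slope comes from was not tested.

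**Figure D3:**
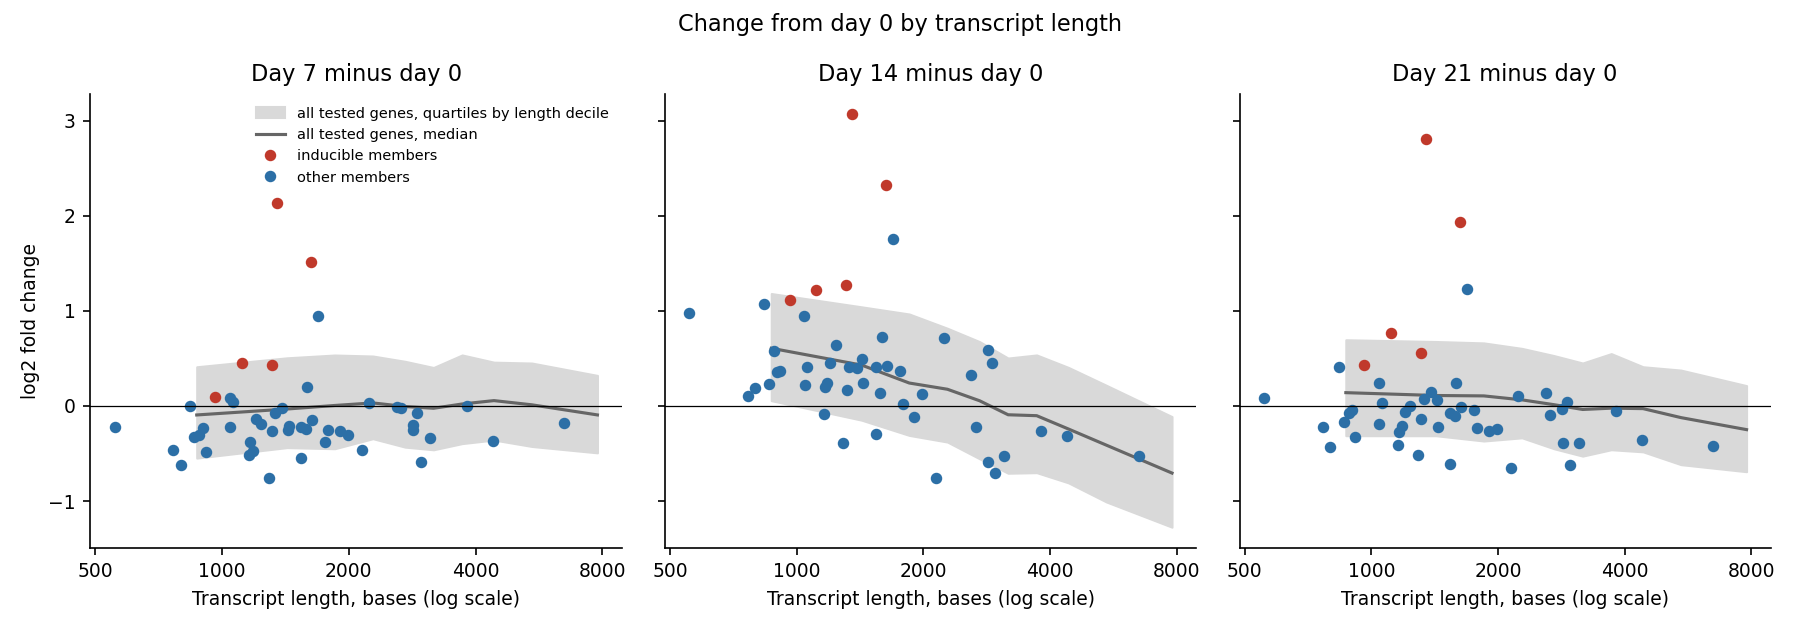
The log2 change from day 0 against transcript length (log scale) for the inducible members (red) and the other members (blue), with the median (grey line) and quartiles (grey band) of all tested genes by decile of length. At day 14 the median of all genes falls from 0.61 in the shortest decile to -0.71 in the longest. Most blue points lie along or under that line, while Psmb8 and Psmb9 lie above the band at all 3 times.

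The core subunits outside the catalytic sites followed the same course. Over all tested genes 27.9% were lower on day 7, 35.2% higher on day 14 and 29.5% lower on day 21. All 4 structural beta subunits (Psmb1 to Psmb4) fell on day 7, with log2 changes of -0.33 to -0.47 and Psmb4 the lowest (-0.47 ± 0.12, SE, limma, adjusted p = 0.00585). Psmb1 and Psmb2 were higher on day 14 (0.37 and 0.24), Psmb3 and Psmb4 were not called (0.11 and 0.24), and none was called on day 21. Among the 7 alpha ring subunits, which gate the core, Psma4 and Psma7 fell on day 7 (-0.37 and -0.48) and on day 21 (-0.28 and -0.33). At day 14 6 of 7 were higher and Psma4 was not called (0.20). Psma6 changed most, with 2876 and 3600 normalized counts on day 14, against 1617 and 1723 on day 0 (log2 change 0.95 ± 0.15, SE, limma, adjusted p = 8.67e-05). With the trend removed the Psma6 change was 0.20 (adjusted p = 0.0877), and 0 alpha ring or beta subunits of the constitutive core were called higher on day 14. Psma1, Psma7 and Psmb2, higher as deposited, were then lower (-0.32, -0.35 and -0.51), and so were Psma4, Psmb3 and Psmb4 (-0.54, -0.61 and -0.37). Several of these calls were lost when 1 library was left out. The day 7 call of Psmb4 was lost without day 0 replicate 2 (-0.44) or day 7 replicate 1 (-0.43), the day 14 call of Psmb1 without day 0 replicate 1 (0.30) or day 14 replicate 2 (0.24), and the day 21 call of Psma7 without day 0 replicate 1 (-0.35), day 0 replicate 2 (-0.30) or day 21 replicate 2 (-0.18).

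Members of the regulatory particle changed in both directions. Psmd1 and Psmd2, the large scaffold subunits of the base, were lower at all 3 times. Psmd2 had 5672 and 5825 normalized counts on day 0, 3787 and 3858 on day 7, 3563 and 3486 on day 14, and 3942 and 3546 on day 21. Every library in medium was below both day 0 libraries, and the log2 changes were -0.59 ± 0.09, -0.71 ± 0.09 and -0.62 ± 0.09 (SE, limma, adjusted p = 0.000139, 1.81e-05 and 7.75e-05), or -0.69, -0.76 and -0.73 with the trend removed. Psmd4, a ubiquitin receptor of the base, was not called on days 7 and 21 (-0.07 and 0.08) and was higher on day 14 (0.41, adjusted p = 0.00486), a call lost without day 0 replicate 2 (0.36) and with the trend removed (-0.11).

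Of the 8 lid subunits, 6 were lower on day 7 and 4 on day 21, where 27.9% and 29.5% of all genes were. At day 14, Psmd6 and Psmd14 were higher (0.40 and 0.41), Psmd3, Psmd8 and Psmd11 were lower (-0.76, -0.30 and -0.58), and Psmd7, Psmd12 and Psmd13 were not called (0.14, -0.12 and 0.12). Psmd14, the deubiquitinase of the lid, lost its day 14 call without day 0 replicate 1 (0.35) or day 14 replicate 2 (0.29) and turned to -0.27 with the trend removed, as Psmd6 turned to -0.22, and both were then called lower. Psmd7, Psmd12 and Psmd13 were also lower after trend removal (-0.38, -0.64 and -0.19). Psmd3 had 4030.3 and 3722 normalized counts on day 0, 2618 and 2995.5 on day 7, 2168 and 2415 on day 14, and 2325 and 2598 on day 21. It was lower in every library in medium than on day 0, and it stayed lower with the trend removed, with log2 changes of -0.52, -0.91 and -0.75. Psmd8, which had the highest level per kilobase of all members on day 0, had log2 changes of -0.55, -0.30 and -0.61 on days 7, 14 and 21 (adjusted p = 0.00084, 0.0255 and 0.000342).

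Of the 6 ATPases of the base, which unfold the substrate, 4 were higher on day 14, where 35.2% of all genes were. These were Psmc1 (0.73 ± 0.10, SE, limma, adjusted p = 2.47e-05), Psmc6 (0.71), Psmc3 (0.42) and Psmc4 (0.25). Psmc2 and Psmc5 were not called (0.02 and 0.17). After trend removal Psmc4 and Psmc5 were lower on day 14 (-0.26 and -0.41), Psmc6 and Psmc3 were not called (-0.06 and 0.02), and Psmc1 stayed higher (0.21). Psmc1 had 3073 and 3516 normalized counts on day 14, against 2037 and 1928 on day 0. Its day 21 change of 0.25 (adjusted p = 0.0436) was the only rise among the 31 at that time, and the call was lost without day 0 replicate 1, day 0 replicate 2, day 7 replicate 1, day 7 replicate 2 or day 21 replicate 1 (0.29, 0.21, 0.25, 0.25 and 0.19). Psmc2 was the only ATPase called lower, on days 7 and 21 (-0.25 and -0.23). Both Psmc2 calls were lost without day 0 replicate 1 (-0.23 and -0.22) and without day 0 replicate 2 (-0.26 and -0.25). At day 7 the Psmc2 call was also lost without day 7 replicate 1 (-0.23) or day 7 replicate 2 (-0.27), and on day 21 without day 7 replicate 1 (-0.23), day 7 replicate 2 (-0.23) or day 21 replicate 2 (-0.16). Psmc2 was lower at all 3 times with the trend removed.

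**Figure D4:**
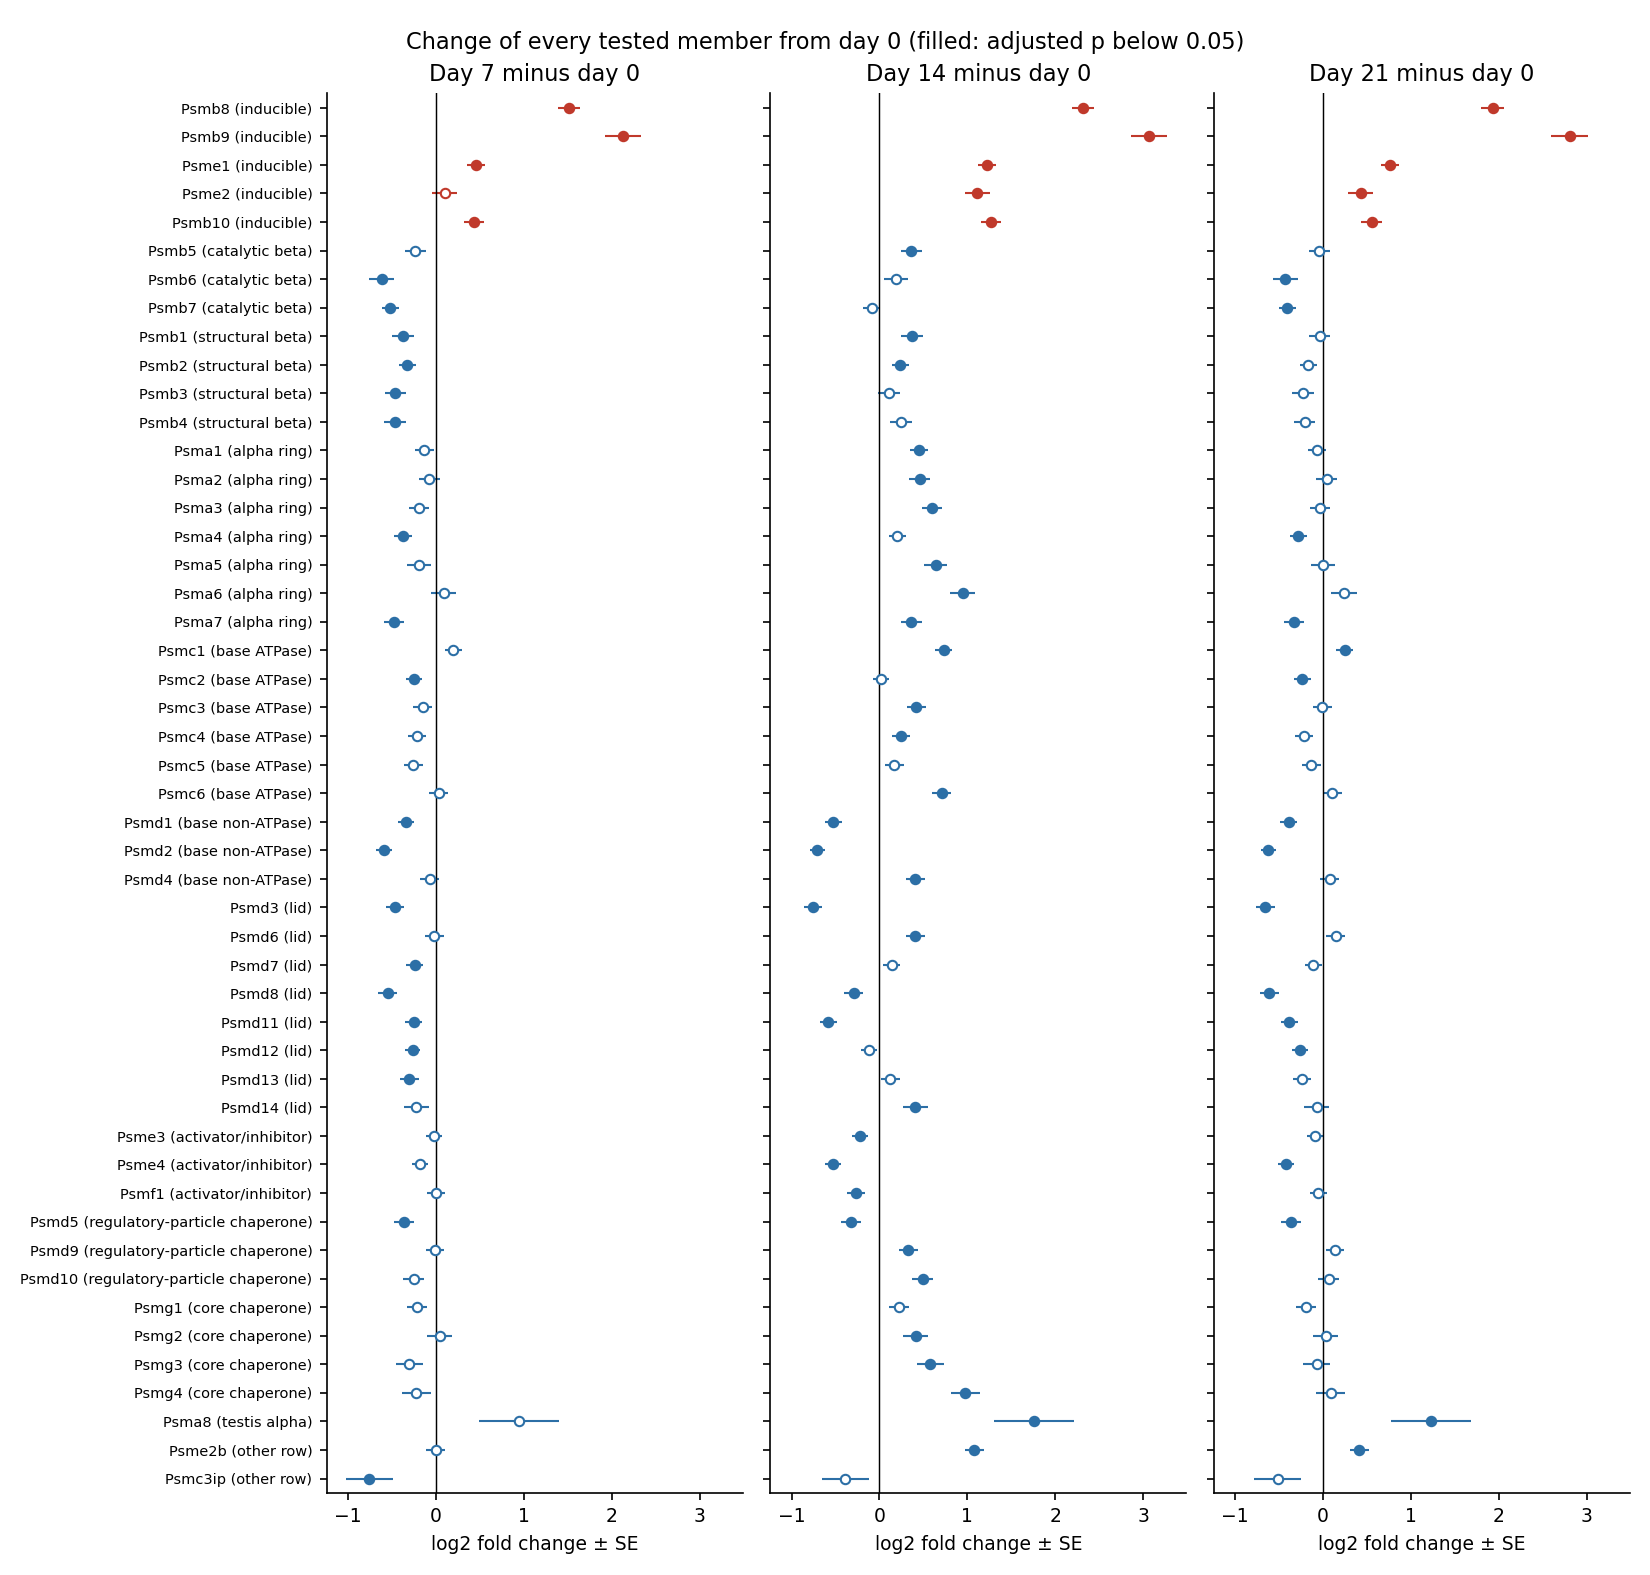
The log2 change from day 0 of all 49 tested rows with its standard error, by role, on days 7, 14 and 21 (red, inducible members; blue, all others; filled points have an adjusted p below 0.05). Psmb8 and Psmb9 lie furthest right in each panel, and most constitutive subunits lie left of 0 on day 7 and right of it on day 14.

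The assembly chaperones followed the particle they serve in part. The 4 core chaperones were not called on days 7 and 21. On day 14, when 35.2% of all genes were higher, Psmg2, Psmg3 and Psmg4 were higher (0.41, 0.58 and 0.98) and Psmg1 was not called (0.22). Psmg4 had 192 and 212 normalized counts on day 14, against 99.5 and 105 on day 0, and none of the 4 was called higher with the trend removed, Psmg1 and Psmg2 being called lower (-0.45 and -0.34). Of the chaperones of the regulatory particle, Psmd5 was lower on days 7, 14 and 21 (-0.36, -0.32 and -0.36). Its calls were lost at each time without day 0 replicate 2 (-0.28, -0.23 and -0.28), on day 7 without day 7 replicate 1 (-0.35) or day 7 replicate 2 (-0.38), on day 14 without day 14 replicate 1 (-0.27) and on day 21 without day 21 replicate 2 (-0.22). Psmd9 and Psmd10 were higher on day 14 alone (0.33 and 0.49), and after trend removal Psmd10 was lower there (-0.26), while Psmd9 (0.19) and the day 14 fall of Psmd5 (-0.14) were not called.

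Rows of low level or other function are given for completeness. Psma8, the testis alpha subunit, had 12.7 and 3.92 normalized counts on day 0, 13.7 and 16.05 on day 7, 22.8 and 31.6 on day 14, and 21.4 and 15.6 on day 21. Its log2 change was 1.76 ± 0.46 on day 14 and 1.23 ± 0.46 on day 21 (SE, limma, adjusted p = 0.00406 and 0.0347). Without day 0 replicate 2 the day 14 change was 1.02 and the day 21 change 0.49, with neither called, and the day 21 call was also lost without day 21 replicate 1 (1.01) or day 21 replicate 2 (1.44). Trend removal left 1.11 on day 14 (adjusted p = 0.0441) and 0.87 on day 21 (adjusted p = 0.109), the second not called. Psmc3ip was lower on day 7 (-0.76, adjusted p = 0.0283), a call lost without day 0 replicate 1, day 0 replicate 2, day 7 replicate 1 or day 7 replicate 2 (-0.84, -0.68, -0.67 and -0.85). The copy Psme2b was higher on days 14 and 21 (1.08 and 0.41) and not on day 7 (0.00). After trend removal the Psme2b change was 0.30 on day 14, still called, and 0.05 on day 21 (adjusted p = 0.53), not called.

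Between times in medium, the constitutive subunits were higher on day 14 than on day 7 in 25 of 31 cases and lower in 2, where 25% and 27% of all genes were. They were lower on day 21 than on day 14 in 21 cases and higher in 0, where 14.3% and 20.2% of all genes were (by limma; 0 higher also at unadjusted p below 0.05, by edgeR and by DESeq2). By limma none of the 31 passed between day 21 and day 7, where 5.46% of all genes were higher and 3.28% lower (1 at unadjusted p below 0.05, 0 by edgeR and 0 by DESeq2). The number lower on day 21 against day 14 was 11 without day 14 replicate 2 and 9 without day 21 replicate 2. The 2 lower on day 14 against day 7, Psmd3 and Psmd11, were 1 without day 0 replicate 1, day 0 replicate 2, day 7 replicate 1 or day 14 replicate 1, and 0 without day 7 replicate 2. With the trend removed the counts were 5 higher and 3 lower for day 14 against day 7, and 0 higher and 8 lower for day 21 against day 14 (2 higher at unadjusted p below 0.05). Of all genes 17.8% were then higher and 22.1% lower for day 14 against day 7. For day 21 against day 14 these shares were 14.9% and 11.1%. For day 21 against day 14 the deposited scaling gave 2735 genes higher and 1929 lower over all genes, and scaling by total reads gave 1965 higher and 2909 lower, with 27 of the 31 subunits lower.

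**Figure D5:**
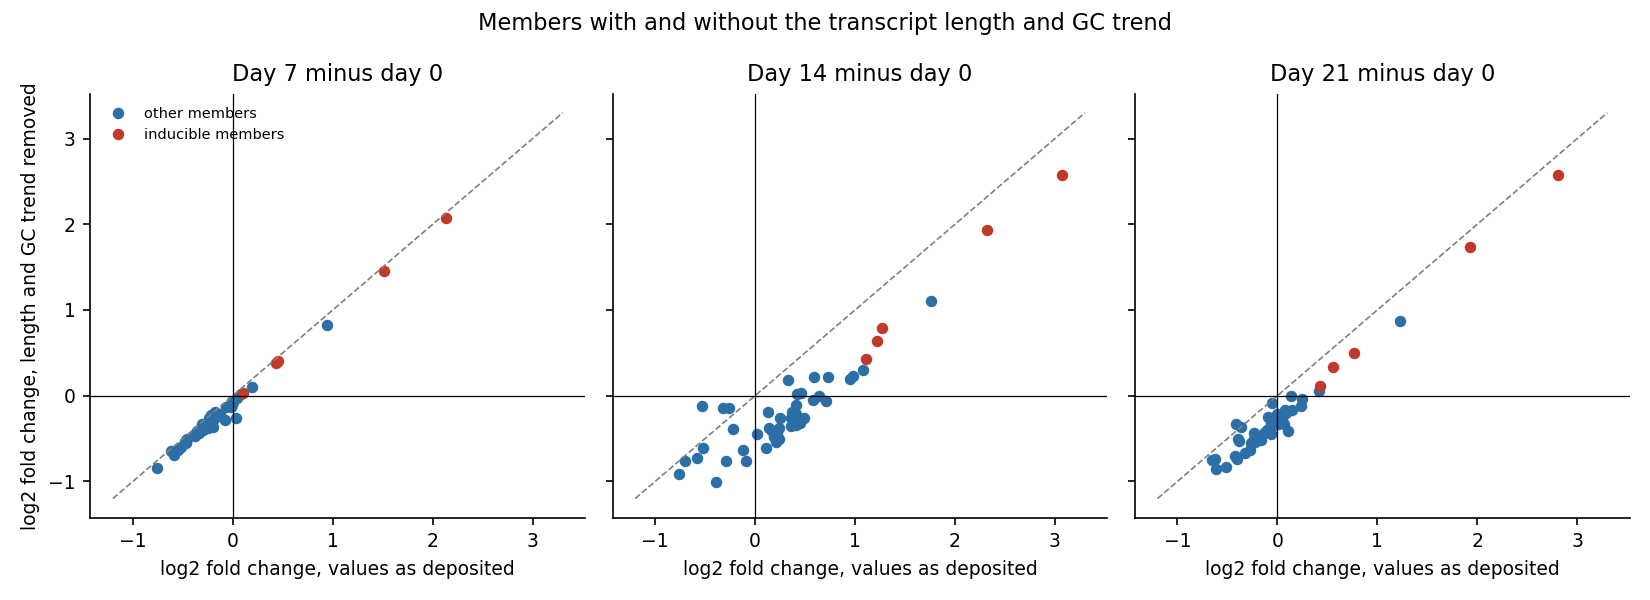
The log2 change from day 0 of the 49 tested rows as deposited (x axis) and with each library's length and GC trend removed (y axis), on days 7, 14 and 21, with equal values on the dashed line. At day 14 most blue points lie right of 0 and below 0 on the y axis, while the 5 red points lie above 0 on both.

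Proteasome genes with other symbols gave 0 higher and 3 lower of 8 on day 7, 1 and 3 on day 14, and 0 and 2 on day 21. Over all tested genes 27.5%, 35.2% and 29.8% were higher and 27.9%, 35.6% and 29.5% lower on days 7, 14 and 21. The falls among these 8 were near those shares. With the trend removed 4, 6 and 5 of the 8 were lower, where 34.5%, 39.9% and 37.9% of all genes were. Pomp, the maturation factor of the core, was higher on day 14 (0.79, adjusted p = 0.00011), and by 0.26 with the trend removed. Ube3c, a ubiquitin ligase of the proteasome, fell on days 7, 14 and 21 (-0.53, -1.06 and -0.67), as did the deubiquitinase Usp14 (-0.35, -0.49 and -0.42). Shfm1, the small subunit Sem1 of the lid, fell on day 7 (-0.43), and AI314180, which encodes the adaptor Ecpas, on day 14 (-0.47, and -0.01 with the trend removed).

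Genes of the Nrf1 route, by which cells raise proteasome transcription when proteolysis is limiting, gave 4 higher and 2 lower of 9 on day 7, 4 and 3 on day 14, and 4 and 2 on day 21. Over all genes 27.5%, 35.2% and 29.8% were higher and 27.9%, 35.6% and 29.5% lower, and the day 14 counts were near these shares. With the trend removed 4, 4 and 6 were higher and 2, 3 and 2 lower. Of all genes 27%, 31.6% and 27.8% were then higher and 34.5%, 39.9% and 37.9% lower. Nfe2l1, the factor itself, was higher at all 3 times (0.54, 0.56 and 0.51). Mafk, a small Maf partner, was higher by 0.76, 1.01 and 1.20, and Ngly1, the enzyme that deglycosylates Nrf1, by 0.84, 0.74 and 0.67. Vcp, the ATPase that extracts Nrf1 from the endoplasmic reticulum, fell (-0.59, -1.17 and -0.79). The Nrf1 activator Ddi2 was not called at any of the 3 times (0.26, -0.35 and 0.39), and after trend removal it was higher on day 21 (0.60).

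Genes of MHC class I loading gave 7 higher and 3 lower of 11 on day 7, 5 and 3 on day 14, and 7 and 2 on day 21, where 27.5%, 35.2% and 29.8% of all genes were higher. Of all genes 27.9%, 35.6% and 29.5% were lower. The counts with the trend removed were 7, 6 and 7 higher and 3 lower at each time. Of all genes 27%, 31.6% and 27.8% were then higher and 34.5%, 39.9% and 37.9% lower. The class I heavy chain H2-D1 was higher by 2.22, 2.36 and 2.30 on the log2 scale on days 7, 14 and 21, H2-K1 by 1.84, 2.01 and 2.14, and the light chain B2m by 1.79, 1.71 and 1.78. Nlrc5, a transactivator of class I genes, was higher by 1.39, 1.75 and 1.90. The genes that fell were the general chaperones of the endoplasmic reticulum Calr (-1.06, -0.66 and -0.45), Canx (-0.78, -1.15 and -0.65) and, on days 7 and 14, Pdia3 (-0.67 and -0.41).

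On chromosome 17 the genes run in the order Psmb9, Tap1, Psmb8 and Tap2. Tap1 and Tap2 encode the peptide transporter that supplies class I molecules. Tap1, which shares most of its promoter window with Psmb9, had 486 and 513 normalized counts on day 0, 527 and 460.02 on day 7, 482 and 324 on day 14, and 475 and 613 on day 21. The groups overlapped, and Tap1 was not called (log2 change -0.02 ± 0.18, -0.34 ± 0.18 and 0.11 ± 0.18, SE, limma, adjusted p = 0.933, 0.103 and 0.604), while Psmb9 rose by 2.13, 3.07 and 2.81. Tap2 was higher at all 3 times (0.79, 0.44 and 0.81). Whether Psmb9 and Tap1 changed by different amounts was not tested.

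Genes of interferon gamma signalling gave 8 higher and 0 lower of 11 tested on day 7, 7 and 1 on day 14, and 8 and 0 on day 21, where 27.5%, 35.2% and 29.8% of all genes were higher. Of all genes 27.9%, 35.6% and 29.5% were lower. The counts higher with the trend removed were 8, 6 and 8, where 27%, 31.6% and 27.8% of all genes were. The cytokine gene Ifng had 0 reads in all 8 libraries. Irf8, a factor of myeloid cells, was higher by 2.40, 2.67 and 2.61, and the receptor subunit Ifngr1 by 2.01, 2.28 and 2.07. Irf1, an interferon-induced transcription factor, was higher by 0.57, 0.62 and 0.51, with the calls on days 14 and 21 lost after trend removal (0.34 and 0.32). The receptor subunit Ifngr2 and the feedback inhibitor Socs1 were not called at any of these times.

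Genes of ubiquitin and its activation gave 1 higher and 4 lower of 9 on day 7, 2 and 2 on day 14, and 3 and 3 on day 21. Over all genes 27.5%, 35.2% and 29.8% were higher and 27.9%, 35.6% and 29.5% lower, and the day 21 counts were near these shares. The counts with the trend removed were 1, 1 and 2 higher and 5, 4 and 5 lower. Of all genes 27%, 31.6% and 27.8% were then higher and 34.5%, 39.9% and 37.9% lower. The activating enzymes Uba1 (-0.63, -1.23 and -0.85) and Uba6 (-0.83, -1.97 and -1.09) fell at all 3 times. The polyubiquitin gene Ubb was higher (0.48, 0.95 and 0.82). Isg15, an interferon-induced modifier, was higher on days 14 and 21 (1.03 and 0.74) and not called on day 7 (-0.07), and neither rise was called after trend removal (0.29 and 0.41).

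Leukocyte markers, like the inducible members, were higher in medium than on day 0. All 15 macrophage and leukocyte markers in the table had reads at every time, and 14, 15 and 14 of them were called higher on days 7, 14 and 21, Aif1 being the one not called on days 7 and 21. Of all tested genes 27.5%, 35.2% and 29.8% were higher. Between times in medium, 8 of the 15 were higher on day 14 than on day 7, against 5 of 5 inducible members and 25% of all genes. On day 21, 2 were lower than on day 14, against 4 of 5 inducible members and 14.3% of all genes. With the trend removed 6 of the 15 were higher on day 14 than on day 7, against 4 of 5 inducible members and 17.8% of all genes. For day 21 against day 14 the number lower was then 1, against 2 of 5 inducible members and 11.1% of all genes. The summed level of the 15 markers was 1289 to 1411 normalized counts on day 0, 10640.2 to 13114 on day 7, 21868 to 40900.4 on day 14 and 21717 to 22279 on day 21. Most of the sum in medium was Lyz2, with 16974.6 and 31689.5 on day 14 in replicates 1 and 2. The 2 day 14 libraries differed in this sum, with 21868 in replicate 1 and 40900.4 in replicate 2. In the same order they had 434 and 421 normalized counts of Psmb8 and 140.3 and 113 of Psmb9. Psmb10 had 870.1 and 1067, Psme1 1214 and 1372, and Psme2 788 and 976. Lymphocyte markers summed to no more than 3.57, with Cd3e, Cd3g, Ms4a1 and Nkg7 at 0 in every library. Markers of other cells moved as well. Cardiomyocyte markers summed to 1137 to 1212 normalized counts on day 0, 11100.3 to 11754 on day 7, 22460.3 to 28811 on day 14 and 5869 to 10603 on day 21, nearly all of it Tnnt2. Of their 3 tested genes 2, 3 and 3 were higher on days 7, 14 and 21, where 27.5%, 35.2% and 29.8% of all genes were. Myh6 was at 0 in every library. Endothelial markers summed to 646.5 to 664 on day 0, 562 to 568 on day 7, 293 to 387 on day 14 and 291 to 423 on day 21. Most of the later sums was Tek, with means of 249 on day 0 and 292 on day 21. Mean Cdh5 was 180 and 5.49 on these days, and mean Tie1 41.4 and 4.08. Of the 6 tested endothelial genes 1, 4 and 5 were lower on days 7, 14 and 21, where 27.9%, 35.6% and 29.5% of all genes were. The part of leukocyte, cardiomyocyte, endothelial or fibroblast marker content in the members' changes was not tested.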

How the data were processed

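The table deposited by the authors holds signal values, read counts divided by a library's size factor, as the steps of the values show. Per the submitters' processing notes TopHat2 2.0.11, HTSeq 0.6.1 and DESeq were used, with the genome mm9. Their roles, the annotation and the strand are not given in the sources used, so reads of overlapping or antisense genes could not be told apart. Total RNA was extracted with a column kit, per the labels' protocols. Values step in units of 1 read, and 100% of them were whole within 0.01 reads after division by that step.

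Log2(value + 1) was fitted with limma 3.58.1 (trend, R 4.3.3) for the 13527 genes that reached 10 normalized counts in 2 or more libraries. All 8 libraries entered 1 fit, with 4 residual degrees of freedom and a prior of 8.16. Genes were called at an adjusted p below 0.05 (Benjamini-Hochberg over all genes tested). Ratios were compared by exact permutation of the libraries. Lengths and GC content came from 1 GENCODE M21 transcript per gene (98.3% of symbols matched), and trends were fitted per library with natural splines of 4 degrees of freedom. Alternatives included edgeR 4.0.16 and DESeq2 1.42.0 on the recovered reads. The fits were tested on simulated data. The members and gene lists were chosen with earlier results of these data known. By rule, the 5 inducible members and their counterparts are given at every time, each role list's largest called rise and fall, its members not called, and up to 3 called genes of each other list. Further members were named after their values were seen.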

Additional observations from a re-analysis of the deposited data

How the results depend on the processing

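The number of inducible members higher than on day 0, or higher on day 14 than on day 7, stayed within 1.5 times under every alternative run. Removal of the length and GC trend moved the most results. It gave 36 rows called at day 7 (23 without it), 38 at day 21 (21), 16 for day 14 against day 7 (41), 11 for day 21 against day 14 (30) and 0 for day 21 against day 7 (1). Constitutive subunits lower became 26 at day 7, 22 at day 14, 27 at day 21 and 8 for day 21 against day 14, and those higher 1 at day 14, 0 at day 21 and 5 for day 14 against day 7. The log2 change of the Psmb8 to Psmb5 ratio at day 21 became 2.03 and passed. Of the 49 rows, 23 changed sign at day 14 with a call in either fit, and 9 of them were called higher without the removal and lower with it. Among the members checked under every setting, signs changed at day 14 for Psmb5 (-0.26), Psmb6 (-0.48), Psmb1 (-0.19), Psmd4 (-0.11), Psmd14 (-0.27) and Psmd10 (-0.26), at day 21 for Psmc1 (-0.0416), and for Psmb7 at day 14 against day 7 (-0.16) and day 21 against day 14 (0.0216). The cause was not tested.

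Replicate numbers did not pair the libraries, with correlations of deviations between times from -0.04 to 0.07. A replicate block alone changed the constitutive subunits higher at day 21 to 0 and left the other counts within 1.5 times. With the trend removed as well, the block gave 36, 38, 15, 8 and 0 rows called in the order above, 27, 21, 27 and 6 constitutive subunits lower, and 1, 0 and 4 higher.

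The constitutive subunits higher at day 21 were also 0 with no filter on low values, with scaling by total reads and with DESeq2. For day 21 against day 7 the rows called were 2 with a pseudocount of 8, 0 with no filter and 3 with edgeR. Fits on only the 4 libraries compared gave 1 constitutive subunit higher at day 7, 1 lower for day 14 against day 7, 16 rows called and 10 constitutive subunits lower for day 21 against day 14, and 3 rows for day 21 against day 7. Setting day 0 against the 6 other libraries, added after the data were seen, gave log2 differences of 1.09 for the Psmb10 ratio, 0.92 for that of Psme1 and 0.66 for that of Psme2, none of which passed.

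Leaving out each library in turn gave 11 to 25 rows called at day 7, 25 to 38 at day 14, 13 to 23 at day 21, 33 to 41 for day 14 against day 7, 14 to 35 for day 21 against day 14 and 0 to 5 for day 21 against day 7. Constitutive subunits lower were 7 to 19, 4 to 5, 6 to 13, 0 to 2 and 9 to 26 in the first 5 of these comparisons, and those higher 9 to 20 at day 14 and 0 to 2 at day 21. The day 21 log2 change was 1.85 to 2.09 for the Psmb8 ratio, 3.08 to 3.39 for Psmb9, 0.90 to 1.02 for Psmb10, 0.73 to 0.98 for Psme1 and 0.31 to 0.73 for Psme2. With 1 library left at a time, it is assumed to vary like the others. The tested rows with fewest reads were Psma8, Psmc3ip and Psmb9.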
